A study of Mus musculus with 4 samples.

Results

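The genes described are 35 genes from families linked to feedback in MAP kinase signalling. They are the dual-specificity phosphatases (Dusp), the Sprouty genes (Spry), the Spred genes, the ETS factors Etv4 and Etv5, and Phlda1 and Errfi1. All 35 are called feedback genes below for short, but a response to ERK was not required, and 14 are atypical dual-specificity phosphatases. The 35 were chosen by symbol among the 30145 genes named by the 30604 rows that carry exactly 1 gene symbol. Each of the 35 had a single such row. RNA came from primary keratinocytes of 1-week-old C57BL/6J mice, either wild type (WT) or deficient in the glucose transporter Glut1 in keratinocytes (KO). There were 4 mice per genotype, and each of the 2 arrays per genotype held 2 plates pooled at random, so the spread between arrays of a group is a spread between pools and may be partly technical. Cells of both genotypes grew with 5 ng/ml EGF, 7.5 ug/ml bovine pituitary extract, 0.5 ug/ml insulin, 0.05 ug/ml hydrocortisone and 0.05 mM calcium chloride, so EGF was present in every culture. The sources used here name neither the Cre driver behind the deficiency nor the deleted part of the gene.

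Growth factor receptors such as the EGF receptor activate Ras, Raf and MEK, which phosphorylate the MAP kinase ERK. Active ERK raises transcripts of its own inhibitors: dual-specificity phosphatases remove the activating phosphates from MAP kinases, Sprouty and Spred proteins act upstream on Ras and Raf, and Errfi1 blocks the EGF receptor kinase. Transcripts of Dusp6, Spry2, Spry4, Etv4, Etv5 and Phlda1 are widely used as a readout of ERK activity, and ERK controls the balance of growth and differentiation in epidermal keratinocytes.

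Of the 35 genes 4 rose in KO cells, Spry2, Dusp3, Etv5 and Dusp5, while Dusp6 fell and 30 did not pass the test (limma, Benjamini-Hochberg adjusted p under 0.05 over all 30604 rows, 2 arrays per group). Over all rows, 7.22% passed in either direction, with 4.11% called higher and 3.11% lower, against 11.4% and 2.86% of the 35 genes. The background depends on brightness: among the 14194 rows above the background floor on all 4 arrays, 8.26% were called higher and 6.14% lower. Of the 35 genes 26 lay above that floor on all 4 arrays, and 15.4% of the 26 were called higher and 3.85% lower. The median change of the 35 genes was 0.08 on the log2 scale, beside -0.01 for all rows. The groups did not overlap for 23 genes, or 65.7%, beside 49.7% of all rows. Both KO arrays lay above both WT arrays for 17 genes, or 48.6%, where 23.8% of all rows did so, and below them for 6 genes, or 17.1%, where 25.8% of all rows did so. Among the 17 are Dusp13 and Dusp15, which lay at or below the floor on all 4 arrays. Among rows above the floor on all 4 arrays, 65.2% did not overlap, 33.6% with KO above and 31.6% with KO below. For the 26 genes above the floor these shares were 76.9%, 53.8% and 23.1%.

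Promoter sequences are shown for called genes because the genes of the set moved in opposite directions: 3 that rose are set beside Dusp6, which fell. The sequences are RefSeq's, 250 bases before the annotated start, 5′ to 3′ on the gene's strand, with motif matches in capitals. A further called gene, Etv5, has more than 1 start in that table and is not printed.
Dusp5, GRCm38.p6 chr19:53528895-53529144, + strand: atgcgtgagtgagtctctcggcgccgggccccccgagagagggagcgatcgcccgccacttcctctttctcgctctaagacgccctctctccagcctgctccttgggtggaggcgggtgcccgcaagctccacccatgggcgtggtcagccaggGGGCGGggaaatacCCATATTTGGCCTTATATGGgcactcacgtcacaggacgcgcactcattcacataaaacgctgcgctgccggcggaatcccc
Dusp6, GRCm38.p6 chr10:99262981-99263230, + strand: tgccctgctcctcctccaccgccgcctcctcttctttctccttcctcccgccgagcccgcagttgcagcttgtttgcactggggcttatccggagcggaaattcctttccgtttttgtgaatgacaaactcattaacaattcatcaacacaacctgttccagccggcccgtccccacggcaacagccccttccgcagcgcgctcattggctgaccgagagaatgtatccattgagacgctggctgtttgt
Spry2, GRCm38.p6 chr14:105896820-105897069, - strand: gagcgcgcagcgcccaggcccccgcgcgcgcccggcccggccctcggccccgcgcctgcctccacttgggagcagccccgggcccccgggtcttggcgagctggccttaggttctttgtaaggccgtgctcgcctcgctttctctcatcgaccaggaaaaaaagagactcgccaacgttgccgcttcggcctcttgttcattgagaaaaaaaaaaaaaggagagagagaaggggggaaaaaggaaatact
Dusp3, GRCm38.p6 chr11:101984792-101985041, - strand: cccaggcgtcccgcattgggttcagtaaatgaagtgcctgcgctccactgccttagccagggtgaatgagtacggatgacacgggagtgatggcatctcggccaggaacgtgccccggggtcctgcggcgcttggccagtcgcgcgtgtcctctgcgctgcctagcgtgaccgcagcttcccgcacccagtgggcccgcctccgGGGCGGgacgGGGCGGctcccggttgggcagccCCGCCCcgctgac
The capitals mark matches, on either strand, to the AP-1 motif TGANTCA, the cyclic AMP response element TGACGTCA, the ETS motif CCGGAAGT, the amino acid response element TGATGNAA, the GC box GGGCGG and the CArG box of serum response factor. Dusp5 held 1 GC box and 2 adjoining CArG boxes, CCATATTTGG from 82 to 73 bases and CCTTATATGG from 72 to 63 bases before the start. Windows of 300 bases, which add the first 50 bases after the start, held a CArG box in 1.63% of 32851 RefSeq promoters, and Dusp5 was the only one of the 25 feedback genes in that table that held one. Dusp3 held 3 GC boxes, a motif found in 35.7% of all promoters. The Dusp6 and Spry2 windows held none of these 6 motifs. The cyclic AMP response element, found in 1.79% of all promoters, was present in Dusp1, Dusp8 and Errfi1, none of which was called. No printed match overlapped another. A match describes the letters of these windows only, and factor binding was not measured.

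Among the nuclear, inducible MAP kinase phosphatases, 1 of 4 rose. Dusp5, which acts on ERK, had a log2 signal of 11.76 and 11.61 on the WT arrays and 12.19 and 12.32 on the KO arrays. The groups did not overlap, and Dusp5 rose 1.49-fold (log2 fold change 0.57, SE 0.11, n = 2 per group, limma adjusted p = 0.0456). Dusp4, an ERK and JNK phosphatase, stood at 8.31 and 8.07 in WT cells and at 9.94 and 9.13 in KO cells. That was the widest difference of the set at 1.34 (SE 0.28, 95% interval 0.64 to 2.05), but the KO arrays lay 0.81 apart and the gene did not pass (limma adjusted p = 0.0557). Dusp1, an immediate early phosphatase of p38, JNK and ERK, stood at 7.91 and 8.02 in WT cells and at 8.41 and 8.80 in KO cells, also without overlap. Its difference of 0.65 (SE 0.16) did not pass either (limma adjusted p = 0.0789). Dusp2, best known from immune cells, lay between 3.06 and 3.14, below the background floor on all 4 arrays.

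Among the cytoplasmic phosphatases, which act mainly on ERK, 1 of 3 fell and the other two did not pass. Dusp6, the main cytoplasmic ERK phosphatase, had 12.09 and 12.02 on the WT arrays and 11.36 and 11.51 on the KO arrays. Both KO arrays lay below both WT arrays, and Dusp6 fell by 0.62 in log2 units, or 1.54-fold (limma, SE 0.10, n = 2 per group, adjusted p = 0.0323). Dusp9 went from 10.54 and 10.79 to 11.32 and 11.16, a difference of 0.58 (SE 0.13) that did not pass (limma adjusted p = 0.0670). Dusp7 had the highest signal of the 35 genes, at 15.35 and 15.32 in WT cells and 15.71 and 15.52 in KO cells, and its difference of 0.28 (95% interval 0.00 to 0.55) did not pass (limma adjusted p = 0.228). The changes of the ERK phosphatases Dusp5 and Dusp6 were 1.20 apart on the log2 scale, a contrast picked after their values were seen and given without a test.

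None of the 3 phosphatases directed at JNK and p38 passed by limma, and 1 of them had an unadjusted p under 0.05. Dusp16 was the nearest, at 8.02 and 8.10 in WT cells and 8.34 and 8.38 in KO cells (difference 0.30, SE 0.09, limma adjusted p = 0.149). Dusp10 and Dusp8 overlapped between the groups, with differences of 0.08 and -0.03 and 95% intervals of -0.27 to 0.43 and of -0.49 to 0.43.

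**Figure D1:**
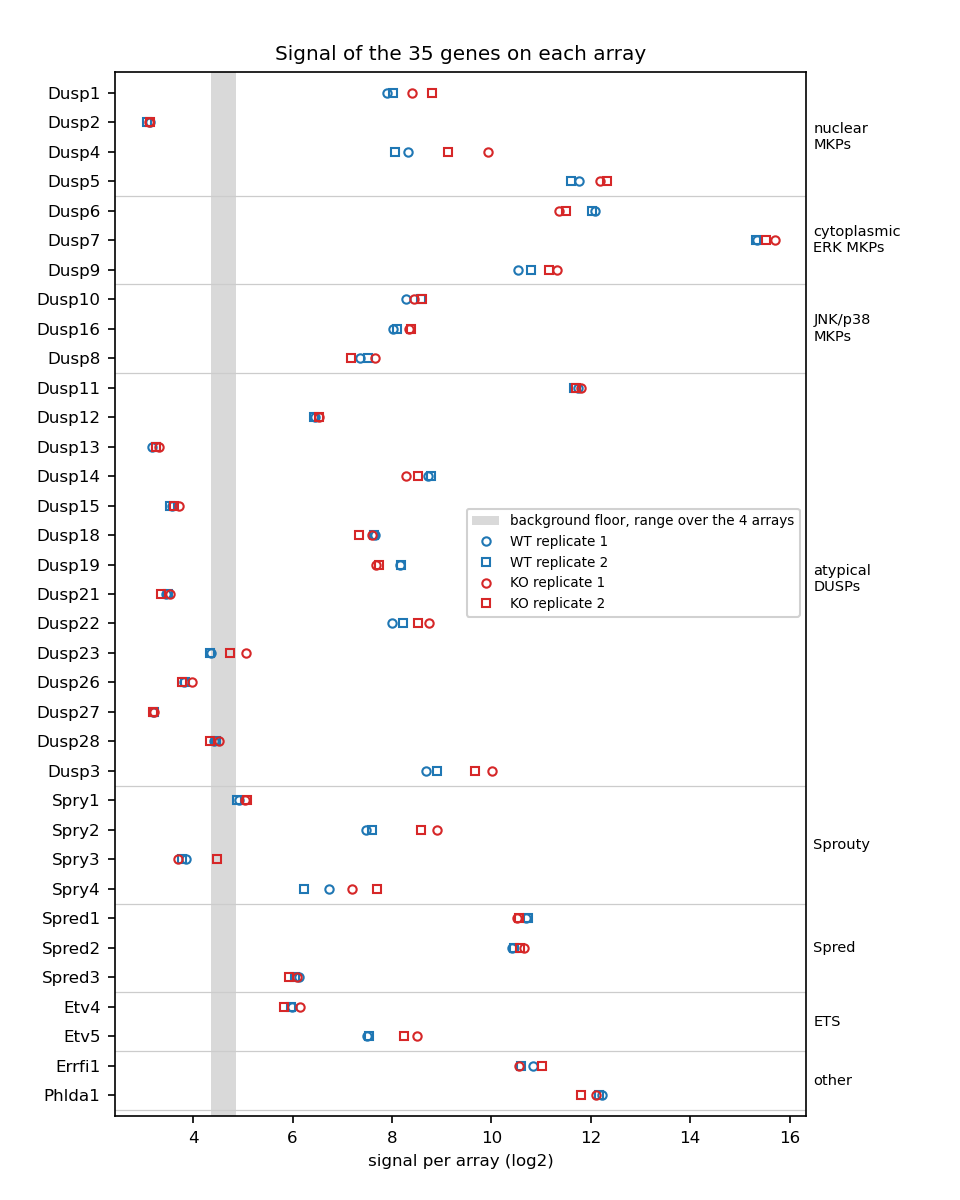
Log2 signal (x axis) of each of the 35 genes (y axis, grouped by role; MKP, MAP kinase phosphatase) on the 2 WT arrays (blue) and the 2 KO arrays (red), with the background floor of the 4 arrays as a grey band. Blue and red are fully apart for 23 genes, 17 with KO to the right, Spry2, Dusp3, Etv5 and Dusp5 among them, and 6 with KO to the left, Dusp6 among them, and 7 genes lie at or below the floor on every array.

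The atypical dual-specificity phosphatases are small enzymes that lack the MAP kinase docking domain, and 1 of 14 rose. Dusp3, also called VHR, dephosphorylates ERK and JNK. Its signal was 8.68 and 8.90 in WT cells and 10.00 and 9.67 in KO cells, a 2.07-fold rise without overlap (log2 fold change 1.05, SE 0.15, n = 2 per group, limma adjusted p = 0.0247). Dusp22, a regulator of JNK signalling, stood at 8.01 and 8.22 in WT cells and at 8.74 and 8.53 in KO cells, and its difference of 0.52 did not pass (SE 0.13, limma adjusted p = 0.0881). Dusp19, which binds the JNK kinase MKK7, went the other way, from 8.16 and 8.19 to 7.68 and 7.74. Its difference of -0.46 (SE 0.09) missed the threshold narrowly (limma adjusted p = 0.0504), with the arrays of each group 0.02 and 0.06 apart. Dusp14 went from 8.73 and 8.78 to 8.28 and 8.52 (difference -0.36, SE 0.12, limma adjusted p = 0.165), and Dusp18 from 7.65 and 7.64 to 7.60 and 7.34 (difference -0.18). Dusp11, an RNA phosphatase, was bright in both groups, at 11.75 and 11.66 in WT cells and 11.81 and 11.69 in KO cells. The groups overlapped for Dusp11, whose 95% interval ran from -0.21 to 0.30. Dusp12 lay between 6.43 and 6.53 on all 4 arrays.

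Dusp23 lay at 4.36 and 4.35 on the WT arrays, whose floors were 4.36 and 4.70, so WT replicate 2 was below its floor. On the KO arrays Dusp23 lay at 5.07 and 4.75, above floors of 4.87 and 4.63. Its difference of 0.56 did not pass (SE 0.14, limma adjusted p = 0.0810). Dusp28 lay between 4.34 and 4.52, near the floor in both groups. Besides Dusp2, the members with no array above the floor were Dusp13, Dusp15, Dusp21, Dusp26, Dusp27 and Spry3. Several of these are known from testis, muscle or brain. For them the arrays give a background level and no measure of a difference.

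Among the Sprouty genes, inhibitors of receptor tyrosine kinase signalling, 1 of 4 rose. Spry2 had 7.48 and 7.60 on the WT arrays and 8.90 and 8.59 on the KO arrays. The lower KO array stood well above the higher WT array, and the rise was 2.31-fold (log2 fold change 1.20, SE 0.14, n = 2 per group, limma adjusted p = 0.0154), the smallest adjusted p of the 35 genes. Spry4 had 6.72 and 6.24 in WT cells and 7.20 and 7.69 in KO cells. Its groups did not overlap, but the arrays of each group were 0.48 and 0.50 apart and the difference of 0.96 did not pass (SE 0.23, 95% interval 0.37 to 1.56, limma adjusted p = 0.0797). Spry1 was just above the floor, at 4.93 and 4.88 in WT cells and 5.05 and 5.08 in KO cells, with a difference of 0.16 (limma adjusted p = 0.413). Spry3 lay between 3.70 and 4.47 and never above the floor.

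No Spred gene was called by limma, and none had an unadjusted p under 0.05. These relatives of Sprouty bind neurofibromin and so hold Ras in its inactive state. Spred1 stood at 10.70 and 10.75 in WT cells and at 10.51 and 10.56 in KO cells (difference -0.19, 95% interval -0.42 to 0.05). Spred2 stood at 10.41 and 10.45 in WT cells and at 10.65 and 10.57 in KO cells (difference 0.18, 95% interval -0.06 to 0.42). Both had arrays of a group at most 0.08 apart, so their intervals are among the narrow ones of the set, whereas Spred3 overlapped between groups at 5.92 to 6.13.

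Of the ETS factors, 1 of 2 rose. Etv5 had 7.50 and 7.54 on the WT arrays and 8.49 and 8.24 on the KO arrays, and rose 1.80-fold without overlap (log2 fold change 0.85, SE 0.12, n = 2 per group, limma adjusted p = 0.0234). Etv4 had 5.99 and 5.97 in WT cells and 6.14 and 5.83 in KO cells, with a 95% interval of -0.33 to 0.34. Whether the changes of Etv4 and Etv5 differ was not tested.

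Neither Phlda1 nor Errfi1 passed. Phlda1, a pleckstrin-homology protein induced by growth factors, stood at 12.22 and 12.17 in WT cells and at 12.10 and 11.81 in KO cells (difference -0.24, 95% interval -0.57 to 0.09, limma adjusted p = 0.389). Errfi1 stood at 10.84 and 10.60 in WT cells and at 10.55 and 11.02 in KO cells, with the KO arrays on either side of the WT arrays (95% interval -0.42 to 0.55).

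**Figure D2:**
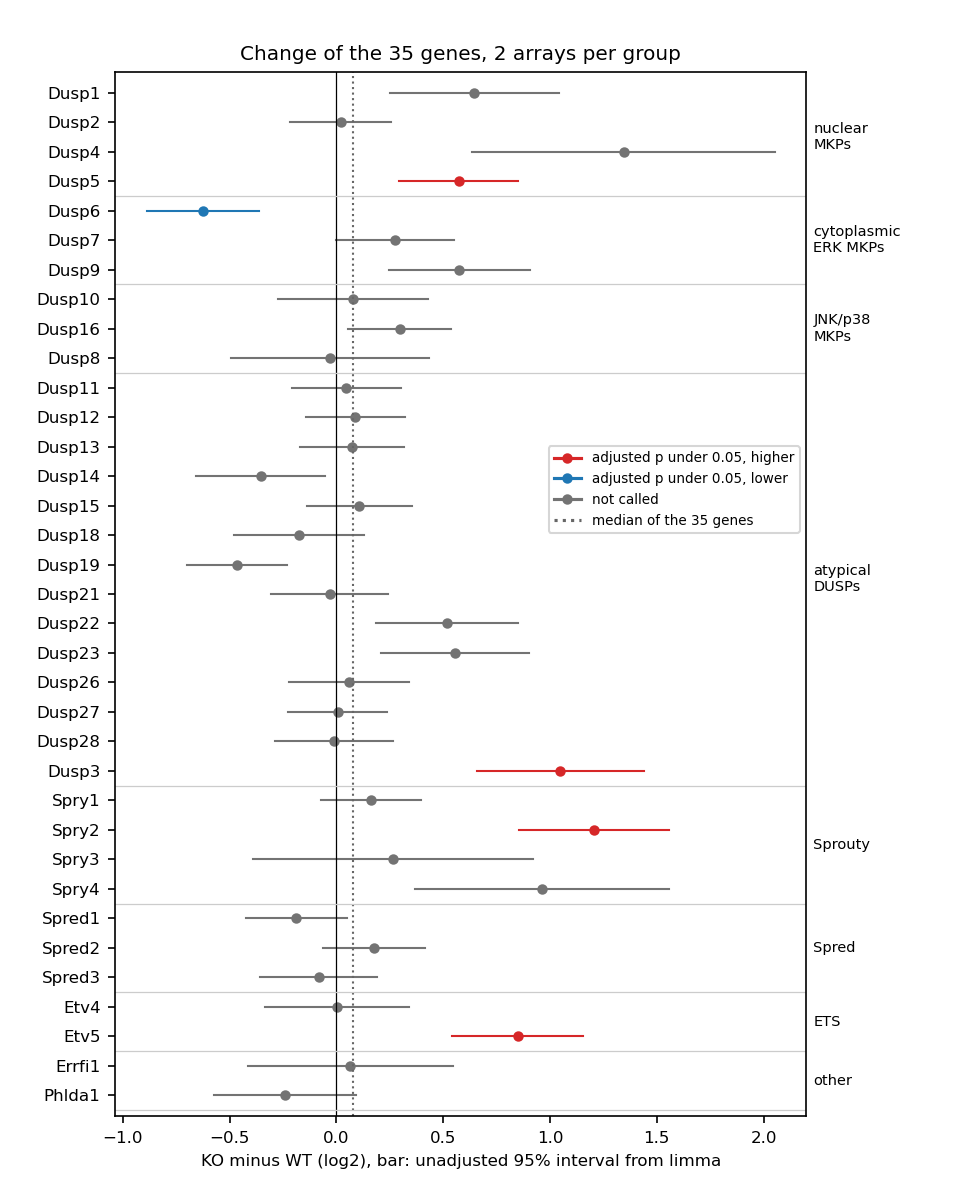
KO minus WT difference (x axis, log2) of each of the 35 genes (y axis, grouped by role), with the unadjusted 95% interval from limma as a bar. Spry2, Dusp3, Etv5 and Dusp5 (red) passed as higher and Dusp6 (blue) as lower; Dusp4 has the largest difference and the widest interval, and the dotted line marks the median of the 35 genes at 0.08.

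The genes usually read together as ERK output did not all go one way. Spry2 and Etv5 rose, Dusp6 fell, and Spry4, Etv4 and Phlda1 did not pass, with differences of 0.96, 0.00 and -0.24. The KO arrays were farther apart than the WT arrays for 26 of the 35 genes, or 74.3%, beside 57.1% of all rows, with a median distance of 0.19 between KO arrays and 0.07 between WT arrays. Over all rows the same medians were 0.14 and 0.11. Above the floor on all 4 arrays, the KO arrays were farther apart for 73.1% of the feedback genes and 61.2% of all rows. Among the genes that passed as higher, Spry2, Dusp3 and Etv5 were highest on KO replicate 1, as Dusp4 was, and Dusp5 was highest on KO replicate 2, as Dusp1 and Spry4 were.

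The calls depended on single arrays, as they did over all rows. Leaving 1 array out left a group with a single array, and fewer of the 30604 rows then passed. A lost call therefore does not set these genes apart. In the fit to all 4 arrays 14 of the 35 genes had an unadjusted limma p under 0.05, as did 6720 of the 30604 rows. Above the floor on all 4 arrays it was 13 of 26 genes and 5481 of 14194 rows. Without KO replicate 2, Dusp4 passed together with Dusp3, Spry2 and Etv5 (adjusted p = 0.0331 for Dusp4 and Spry2, 0.0444 for Dusp3 and 0.0411 for Etv5). With 1 array left out the difference was 1.05 to 1.36 for Spry2, 0.88 to 1.21 for Dusp3, 0.72 to 0.98 for Etv5, 0.50 to 0.65 for Dusp5 and -0.70 to -0.55 for Dusp6. For Dusp4 it was 0.94 without KO replicate 1 and 1.75 without KO replicate 2. Adjusted p-values then ran from 0.0331 to 0.0682 for Spry2, from 0.0444 to 0.101 for Dusp3, from 0.0411 to 0.107 for Etv5, from 0.115 to 0.206 for Dusp5 and from 0.0625 to 0.163 for Dusp6. With the replicate number as a block Dusp5 and Dusp6 did not pass (adjusted p = 0.0807 and 0.0574) and Dusp4 did (0.0139).

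**Figure D3:**
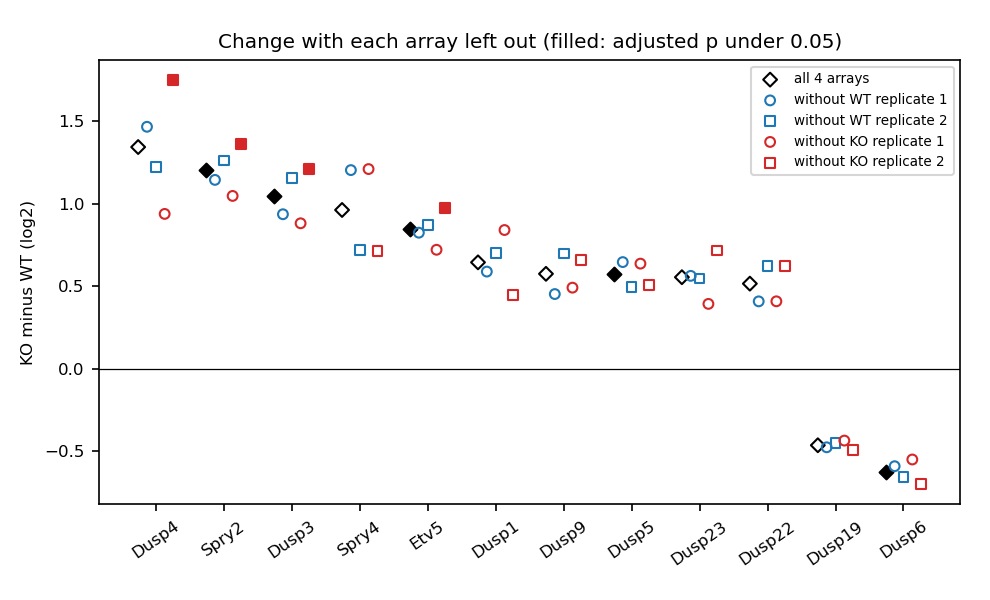
KO minus WT difference (y axis, log2) of the 12 genes with an adjusted p under 0.1 (x axis), with all 4 arrays (black) and with each array left out in turn; filled symbols mark an adjusted p under 0.05. Every symbol of a gene stays on the same side of 0, and filled coloured symbols occur without KO replicate 2 and for Dusp4, Spry2, Dusp3 and Etv5.

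Companion genes of the pathway were taken as whole lists. In all 120 of 133 listed genes had a row with 1 symbol, of which 13 rose and 7 fell. Those shares, 10.8% and 5.83%, stand beside 4.11% and 3.11% of all rows and 8.26% and 6.14% of rows above the floor on all 4 arrays, where 99 of the 120 genes lay. Of the EGF-family ligands and receptors 1 of 14 rose, the ligand gene Epgn, from 6.90 and 7.31 to 9.73 and 10.43 (log2 fold change 2.98, SE 0.27, limma adjusted p = 0.00909). The median of that list was -0.05. Of the FGF receptors, ligands and adaptors 2 of 12 rose, both receptor genes whose signalling Sprouty proteins are known to restrain. Fgfr2 went from 7.21 and 7.63 to 8.84 and 8.50, and Fgfr1 from 8.62 and 8.12 to 9.33 and 9.70 (log2 fold changes 1.25 and 1.14, limma adjusted p = 0.0264 and 0.0424).

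In the cascade from adaptors to ERK, 2 of 22 genes rose, the adaptor gene Gab1 by 0.57 and the Ras activator gene Sos2 by 0.52, and the list's median was -0.01. In the JNK, p38 and ERK5 cascades 2 of 23 rose, the p38 kinase gene Map2k6 by 0.58 and Map3k2 by 0.60, and 1 fell, Mapk11, which encodes p38 beta, by 1.02 on the log2 scale (limma adjusted p = 0.0190). Of other ERK-responsive genes 4 of 26 rose and 3 fell, with a list median of 0.09. Fos rose from 5.90 and 5.88 to 7.42 and 7.48 (log2 fold change 1.56, SE 0.09, limma adjusted p = 0.00434), and the urokinase receptor gene Plaur rose by 0.73. Ier3 fell from 14.16 and 14.05 to 13.14 and 13.01, and the ephrin receptor gene Epha2 from 13.71 and 13.56 to 12.66 and 12.49 (limma adjusted p = 0.0122 and 0.0140). Fosl1 and Jun, which rose by 1.17 and 0.73, and Elk3, which fell by 0.63, complete these counts and were named after their values were seen.

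Other negative regulators of receptor tyrosine kinases also went both ways, with 2 of 23 higher and 3 lower. Rgs16, a regulator of G protein signalling, fell from 14.52 and 14.75 to 11.92 and 12.52 (log2 fold change -2.41, SE 0.22, limma adjusted p = 0.00935). Dok2, an adaptor that recruits RasGAP, fell by 1.43, and Lrig1, which promotes degradation of the EGF receptor, by 0.99. Its relative Lrig2 rose by 0.64, as did Tob1 by 0.60, named after its value was seen. With 1 array left out, 2 to 3 of the companion genes passed as higher and 1 to 6 as lower. Fos, Epgn and Rgs16 passed whichever array was left out (adjusted p from 0.0190 to 0.0341). Dok2 was lost without KO replicate 1 (0.0562), Ier3 and Epha2 without WT replicate 1 (0.0635 and 0.0674) or KO replicate 1 (0.0562 each), and Mapk11 without WT replicate 1 (0.0829) or KO replicate 1 (0.0890). Fgfr2 passed only without WT replicate 2, Fosl1 only without KO replicate 1, and Lrig1 and Jun only without KO replicate 2, while Fgfr1, Gab1, Sos2, Map2k6, Map3k2, Plaur, Lrig2, Elk3 and Tob1 were lost whichever array was left out (adjusted p from 0.0540 to 0.218).

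**Figure D4:**
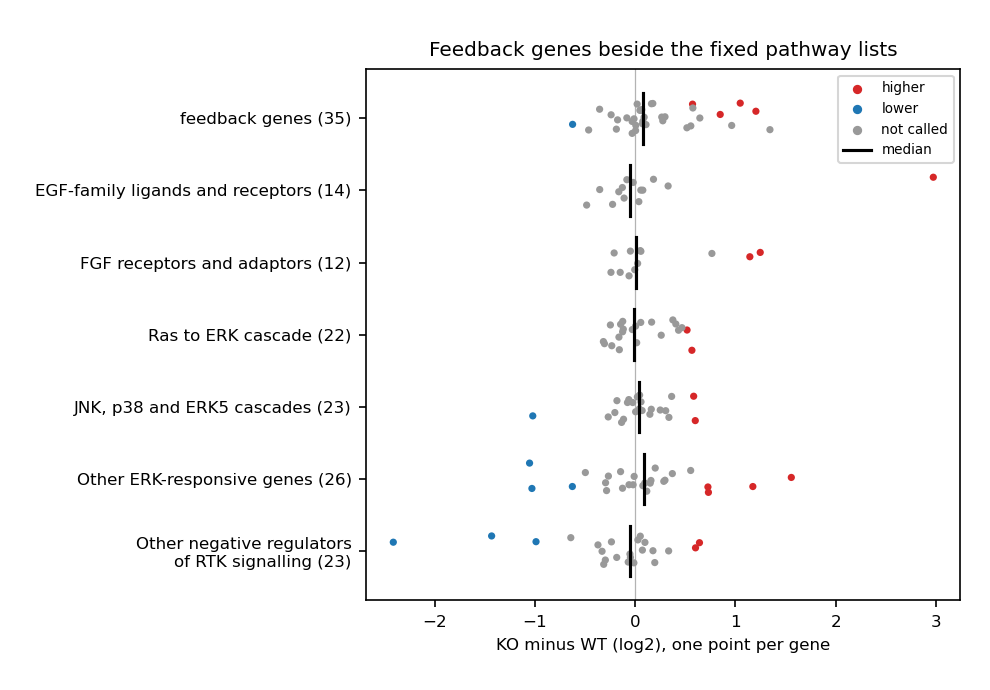
KO minus WT difference (x axis, log2) of the 35 feedback genes and of the 6 companion lists (y axis, number of genes measured in brackets), 1 point per gene, red or blue where limma's adjusted p was under 0.05, with a black line at each median. The medians of the companion lists lie between -0.05 and 0.09. Most points are grey (not called). The EGF, FGF and Ras to ERK lists have red but no blue points, and the other 3 have both.

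Slc2a1, the gene of Glut1, had 13.26 and 13.40 on the WT arrays and 12.09 and 12.01 on the KO arrays (limma adjusted p = 0.00754; 0.0508 without KO replicate 1). All 12 keratinocyte markers were measured, led by Krt5 at 17.98 to 18.69 and Krt14 at 16.97 to 17.60, and their summed signal (log2 of the sum of linear signals) was 19.88 and 19.99 in WT cells and 19.84 and 19.64 in KO cells. Across the 12 genes the median change was -0.28, with Dsg3 higher and Col17a1 lower (log2 fold changes 0.92 and -0.86, limma adjusted p = 0.0157 and 0.0181). Melanocyte markers had a summed signal of 10.58 and 10.08 in WT cells and 12.39 and 11.16 in KO cells, and a median change of 0.76. Of these 8 markers 1 was called higher, Pmel (log2 fold change 1.04, limma adjusted p = 0.0341). The brightest, Tyrp1 and Dct, differed by 1.49 and 1.84 without passing (limma adjusted p = 0.136 and 0.0670). Fibroblast markers had a summed signal of 9.45 and 9.31 in WT cells and 10.58 and 12.06 in KO cells, and a median change of 0.37. Vim and Dcn were higher, Fbln1 was lower, and Col3a1 and Lum were at or below the floor. Vim, at 10.25 and 11.92 on the KO arrays, made up most of the fibroblast sum in KO cells. Endothelial markers had 7.24 and 7.40 in WT cells and 10.25 and 9.66 in KO cells, but the list's median change was 0.01. Kdr alone, at 10.14 and 9.51 on the KO arrays, made up most of the KO sum, Pecam1 differed by -0.32 without passing (limma adjusted p = 0.141), and Tie1, Cdh5, Tek and Emcn were at or below the floor. The 6 immune markers measured, of which Ptprc and Lyz2 were the brightest, were all at or below the floor. The melanocyte sum and the endothelial sum, mostly Kdr, were higher on KO replicate 1, as Dusp4, Dusp3, Spry2 and Etv5 were. The fibroblast sum, mostly Vim, was higher on KO replicate 2, as Dusp5, Dusp1 and Spry4 were. Of all rows 60.4% were higher on KO replicate 1, and of rows above the floor on all 4 arrays 54.4% were. Whether other cell types were present and had a part in the changes of the feedback genes was not tested. In bulk RNA a change in the number of cells of a type and a change in RNA per cell cannot be told apart.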

How the data were processed

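The deposited values are log2 signals at gene level. The authors used Affymetrix Expression Console with RMA, per the submitters' processing notes, and the labels name the SST-RMA form. No version, annotation release or build was found in the labels. RMA equalises array distributions, so a shift shared by most genes is removed, and the signal transformation of SST-RMA can alter folds. Rows were named through the platform annotation. KO and WT were compared on 30604 rows with limma 3.58.1 (lmFit, eBayes, two-sided, no replicate block) in R 4.3.3, with Benjamini-Hochberg adjustment. No low-signal filter was applied. The floor is the 95th percentile of 23 background control rows per array, between 4.36 and 4.87. Of the 35 genes, 26 were above it on all 4 arrays and 7 on none. Precision is limited by having 2 arrays per group. The fit was run on simulated data drawn from its own variance model, which checks the code and not the calls made here. The members and lists were chosen with earlier results of these data known. Every member is named, with up to 4 called genes (otherwise 2) of smallest p per companion list, the 2 brightest markers per cell type, and further genes named where a count needed them. Genes without a row with 1 symbol were not analysed here. Alternatives covered the rows tested, normalization, variance moderation, a replicate block, each array left out and the row standing for a gene.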

Additional observations from a re-analysis of the deposited data

How the results depend on the processing

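With every row of the table tested, control rows included, limma called 74 rows in place of 2209. It then called 0 feedback genes higher and 0 lower and 0 companion genes higher and 0 lower. Slc2a1, at -1.28, did not pass (limma adjusted p = 0.0648). When only rows with a mean at or above the median were tested, 3043 rows passed in place of 2209, although fewer rows were tested. Of the 26 feedback genes tested, 8 were then higher and 2 lower, adding Dusp1, Dusp4, Dusp9 and Spry4 and, as lower, Dusp19. With the mean of all rows of a gene, 2 feedback genes were lower, Dusp6 and Dusp19. Dusp19 has a single row, so its difference stayed at -0.46. Only its limma adjusted p moved, from 0.0504 to 0.0495. With 1 array left out, where the lone array of a group is assumed to vary like the others, 314 to 1214 rows, 0 to 4 feedback genes higher, 0 lower, 2 to 3 companion genes higher and 1 to 6 lower were called, and the change of Slc2a1 ran from -1.35 to -1.21. With the replicate number as a block, 1849 rows passed, 4 feedback genes were higher and 0 lower, and 8 companion genes were higher. Plates were pooled at random and same-numbered deviations correlated at -0.23. The labels state nothing that same-numbered samples share beyond the number, and whether they shared a processing run was not tested. A crossed pairing, added after seeing the data, gave 2039 rows, 6 feedback genes higher and 1 lower. The median change of the feedback genes stayed between 0.07 and 0.15 in every alternative. Of the 35 genes, 24 kept their sign in every alternative. Dusp5 did not pass after median centring or with trended, robust moderation, and Spry4 passed after quantile normalization. The causes were not tested. Depth here is signal over background, which leaves 9 genes with a mean over the 4 arrays at or below the mean floor. Dusp23 is among them, although both its KO arrays were above the floors of those arrays.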
